A study of Mus musculus with 8 samples.

Results

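The 38 genes described here act in the cell cycle. Of them, 13 belong to the start of S phase, DNA replication and nucleotide supply, and 25 to mitosis. Their transcripts were followed in brown fat (BAT) of mice that had undergone either a mock operation (Sham) or a narrowing of the thoracic aorta (TAC), which loads the left ventricle with pressure. The members were selected on measured values, since genes of this kind had been seen to lie high on TAC replicate 1 against the other TAC arrays, so differences between these arrays describe the choice and are no test of it. They are 38 of the 21154 genes that could be named on the array, of which 14990 had a probe bright enough to be tested, among them 28 of the 38 members.

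By their labels, all animals were male C57BL/6NCrSlc mice, operated on at 11 weeks of age and 13 weeks old at collection, with 4 mice after Sham, 4 after TAC and 1 array per mouse. From operation to collection, 2 weeks passed by the source names and treatment protocol, but 4 weeks by the sample descriptions. Total RNA was labelled with Cy3 and hybridized to one-colour Agilent arrays, on which the brightness of a spot measures the transcript its probe binds. The comparison asks how gene expression in BAT differs after TAC.

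A dividing cell duplicates its DNA in S phase and separates the copies in mitosis. E2F factors switch on the genes of the first step, and the DREAM and MuvB complexes hold back and then release those of mitosis, so that transcripts of each step rise and fall together through the cycle. Mature brown adipocytes rarely divide, while precursors, endothelial cells and blood-derived cells in the tissue can, and RNA of the whole tissue does not show which cells the transcripts came from.

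Scanner intensities were used for Sham replicates 2 to 4 and for all 4 TAC arrays, 7 in all, and Sham replicate 1 was taken from the deposited table of all 8 arrays. A level here is the log2 intensity minus the log2 of the 75th percentile of its array, so that 0 lies at that percentile, and levels of different probes served only to pick the brightest probe of a gene or list and to sum a list. A probe was well above background on an array by the scanning software's own call. That held for 64.3%, 58.4% and 62.7% of the spots on Sham replicates 2 to 4 and 59.7%, 57.4%, 54.5% and 59.7% on TAC replicates 1 to 4. Of the 38 members, 30, 27 and 27 were well above background on these Sham arrays and 30, 26, 23 and 25 on the TAC arrays. The number of arrays limits the precision. All 7 scanned arrays lay on 1 slide, the Sham arrays in one line and the TAC arrays in the other, so position and operation cannot be told apart. The column on the slide was the replicate number, and TAC replicate 1 was the only scanned array in column 1. What sets that array apart therefore cannot be told from its column.

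TAC replicate 1 stood apart before any gene was named. Over the 33364 probes tested, 7.56% lay more than 1 log2 unit from the median of the other arrays on TAC replicate 1, against 1.39% to 3.13% on the other 6. Medians of the members and of the lists of mitosis, replication and E2F, Rb and DREAM genes are therefore given with and without it. As a check of the labelled tissue, all 11 brown adipocyte markers, Ucp1 and Cidea among them, were well above background on each of the 7 arrays.

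The 2 kinds of member differed in how far they lay from Sham on TAC replicate 1. The mean of the 16 mitotic members tested, as a log2 difference from the average over Sham replicates 2 to 4, was 0.13, 0.23, -0.14 and -0.092 on Sham replicates 1 to 4 and 1.01, -0.12, -0.22 and -0.19 on TAC replicates 1 to 4. That of the 12 S-phase members tested was 0.16, 0.062, -0.082 and 0.020 on Sham replicates 1 to 4 and 0.51, -0.023, -0.11 and -0.064 on TAC replicates 1 to 4. Both means were highest on TAC replicate 1, and the other TAC arrays lay slightly below the Sham mean. The mitotic mean exceeded the S-phase mean by 0.51 on TAC replicate 1 and differed from it by -0.12 to 0.17 on the other 7 arrays. Medians on TAC replicate 1 were 0.89 for the mitotic and 0.34 for the S-phase members. Tk1, at 2.76 above Sham there, raised the S-phase mean. Because the members were chosen for TAC replicate 1, this contrast of the phases is a description with no test.

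**Figure D1:**
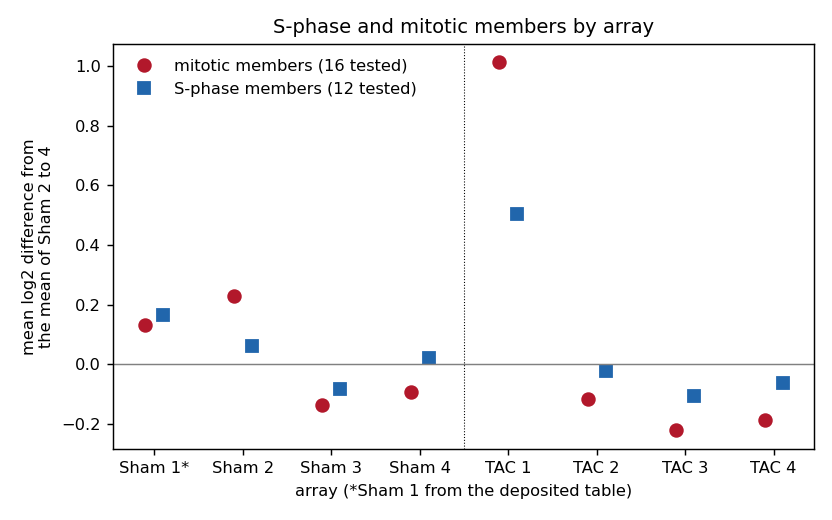
Mean log2 difference of the mitotic members (circles, 16 tested) and the S-phase members (squares, 12 tested) from the mean of Sham replicates 2 to 4, 1 point per array and group of members. TAC replicate 1 lies at 1.01 and 0.51, and no other array lies above 0.23. Sham replicate 1 comes from the deposited table, shifted to the scanner scale.

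Between the groups, no member passed limma's test with Benjamini-Hochberg adjustment over all 33364 probes (0 higher and 0 lower after TAC, against 0% of all probes called). The adjusted p of the members lay between 0.197 for Cdk1 and 0.993 for Nusap1. At an unadjusted p under 0.05, 1 member was higher after TAC, Kif23, against 4.38% of all probes, and 3 were lower, Cdk1, Ccne1 and Rrm1, against 8.43%. Over all probes, limma called 0, with 1462 higher and 2814 lower at an unadjusted p under 0.05. The methods' t-test on the same values also called 0 probes after adjustment, with 1602 higher and 2587 lower unadjusted, and 1 member higher and 3 lower. Without Sham replicate 3 limma's unadjusted counts were 893 and 1602, and without TAC replicate 4 it called 7 probes higher and 1 lower, 0 of them members. TAC and Sham arrays did not overlap in 0 members on the higher side, against 5.59% of the probes, and in 2 on the lower side, Cdk1 and Rrm1, against 10.4%. Cdk1 entered the test only through its 3 Sham arrays and had to be lower. These counts use 7 arrays, and on Sham replicate 1 both genes lay within the TAC range. The median difference of the 28 members was 0.15 with 19 higher and 9 lower after TAC, and -0.032 over all probes. Without TAC replicate 1 it turned to -0.062 with 12 higher and 16 lower, the median of the mitotic members from 0.15 to -0.13 and that of the S-phase members from 0.13 to 0.064 (0.0071 without Sham replicate 3), and at an unadjusted p under 0.05, 1 member was higher, against 4.68% of all probes in that fit, and 6 instead of 3 were lower, against 8.45%. The count of 3 lower became 1 without Sham replicate 2 (2201 lower over all probes) or Sham replicate 3 (1602). The count of 1 higher became 2 without Sham replicate 2 (1165 higher over all probes) or TAC replicate 2 (1453), and 0 without Sham replicate 3 (893) or Sham replicate 4 (1094).

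TAC replicate 1 was the highest of the 7 arrays for 21 of the 28 members tested, against 18.2% of all probes, in 14 of 16 mitotic and 7 of 12 S-phase members. It exceeded the mean of the other TAC arrays by more than 2-fold in 14 members, against 3.61% of all probes, in 12 mitotic and 2 S-phase members, which were Mcm5 and Tk1. Nothing is read from these counts, since this contrast chose the members. On TAC replicate 1, 15 of the 16 mitotic members lay above all of Sham replicates 2 to 4, and 1, 2 and 1 of them did on TAC replicates 2, 3 and 4. Of the 12 S-phase members 7, 0, 2 and 6 did on TAC replicates 1 to 4, and of all probes 27.1%, 25.9%, 26.5% and 25.6%. Sham replicate 1 lay above these Sham arrays in 7 mitotic and 5 S-phase members. No share over all probes stands beside that count, so nothing is read from it.

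**Figure D2:**
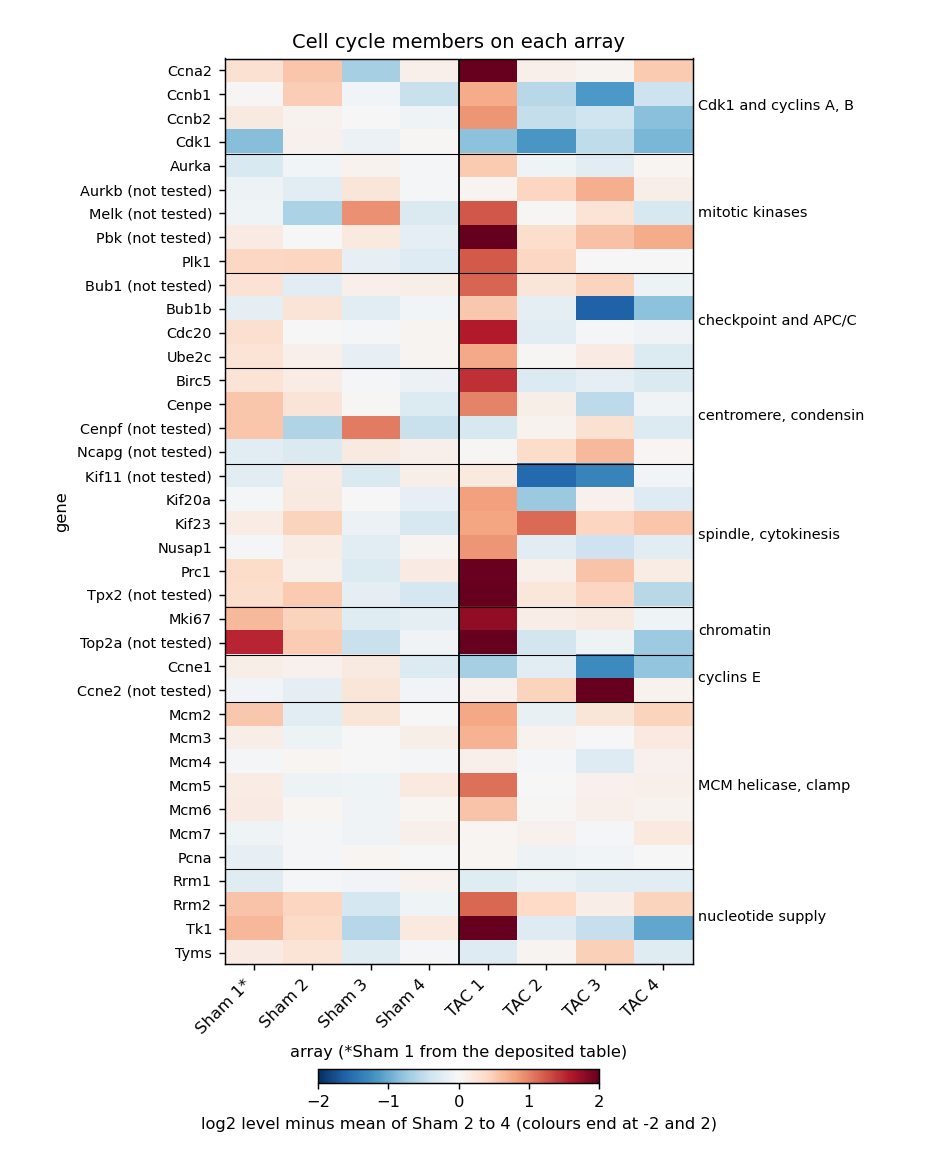
Level of each of the 38 members on each of 8 arrays, as the log2 difference from the mean of Sham replicates 2 to 4 (colour, ending at -2 and 2), grouped by role. The column of TAC replicate 1 is red for most mitotic members and pale for Mcm7, Pcna and Rrm1. Members marked as not tested were well above background on fewer than 3 arrays.

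Promoters are shown because most mitotic members tested were high on the same array and genes of mitosis are known to share sequence motifs. RefSeq (GRCm38.p6) gave 300 bases, 250 before to 50 after the start, for 31 of the 38 members, and 7 were not matched in the promoter table used, Ccna2, Aurkb, Pbk, Kif20a, Tpx2, Ccne2 and Mcm4. Motifs were searched on both strands. They were the CHR (TTTGAA), to which the MuvB core binds, the CCAAT box (CCAAT), to which NF-Y binds, and E2F sites (TTTCCCGC, TTTCGCGC, TTTGCCGC or TTTGGCGC). The CHR stood in 15 of the 21 promoters of mitotic members (71.4%), in 1 of the 12 of S-phase members (8.33%) and in 17.9% of all 32851 promoters. The CCAAT box stood in 18 (85.7%), 9 (75%) and 37.4% of them, and both motifs together in 15 promoters of mitotic members (71.4%), in 1 of S-phase members (8.33%), in 46.0% of those of other mitosis genes and in 6.95% of all. An E2F site stood in 2 promoters of mitotic members (9.52%), in 4 of S-phase members (33.3%) and in 2.27% of all. Other mitosis genes held the CHR in 65.1% of 63 promoters and other replication genes in 14.3% of 35. A match is a description of letters, and binding was not measured. Among tested mitotic members, Cdc20, Plk1, Mki67, Ccnb2, Aurka, Bub1b, Ube2c and Prc1 were highest on TAC replicate 1 and held both motifs. Birc5 and Nusap1, also highest there, held none of the motifs, and Ccnb1 and Cenpe, highest there too, held no CHR. Cdk1 and Kif23, dim and not highest there by their brightest probes, held both. Whether a motif went with the level on that array was not tested.

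The promoters of 4 mitotic members follow, 5′ to 3′ along the gene, chosen after their motifs were seen, because each holds a CHR beside a CCAAT box. Capitals mark these motifs on either strand, ATTGG being the CCAAT box on the other strand. They lie at chr4:118437294-118437593, minus strand, for Cdc20, chr7:122159185-122159484, plus strand, for Plk1, chr7:135716330-135716629, minus strand, for Mki67, and chr9:70421505-70421804, minus strand, for Ccnb2.
Cdc20: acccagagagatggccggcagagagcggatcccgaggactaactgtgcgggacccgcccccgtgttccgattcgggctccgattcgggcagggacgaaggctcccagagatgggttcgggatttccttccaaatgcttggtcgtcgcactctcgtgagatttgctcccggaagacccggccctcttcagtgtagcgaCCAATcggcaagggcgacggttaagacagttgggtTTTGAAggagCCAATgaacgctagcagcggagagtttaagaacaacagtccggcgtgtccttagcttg
Plk1: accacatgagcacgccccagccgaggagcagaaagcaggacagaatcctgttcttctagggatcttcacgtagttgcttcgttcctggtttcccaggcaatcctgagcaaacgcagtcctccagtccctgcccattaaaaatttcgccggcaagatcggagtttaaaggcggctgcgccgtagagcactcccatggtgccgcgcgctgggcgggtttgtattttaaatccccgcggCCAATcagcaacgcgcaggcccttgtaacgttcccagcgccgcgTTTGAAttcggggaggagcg
Mki67: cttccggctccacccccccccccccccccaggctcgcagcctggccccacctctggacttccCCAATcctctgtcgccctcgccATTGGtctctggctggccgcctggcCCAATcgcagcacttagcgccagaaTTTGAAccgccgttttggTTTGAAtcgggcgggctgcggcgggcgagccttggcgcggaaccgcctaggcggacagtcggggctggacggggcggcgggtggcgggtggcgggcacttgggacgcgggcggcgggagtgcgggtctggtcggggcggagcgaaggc
Ccnb2: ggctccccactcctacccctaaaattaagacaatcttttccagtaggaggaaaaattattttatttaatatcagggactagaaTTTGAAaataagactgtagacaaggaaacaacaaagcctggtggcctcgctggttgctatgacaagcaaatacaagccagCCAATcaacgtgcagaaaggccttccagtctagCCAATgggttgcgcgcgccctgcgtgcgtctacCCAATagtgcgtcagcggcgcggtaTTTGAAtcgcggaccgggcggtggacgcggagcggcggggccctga

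**Figure D3:**
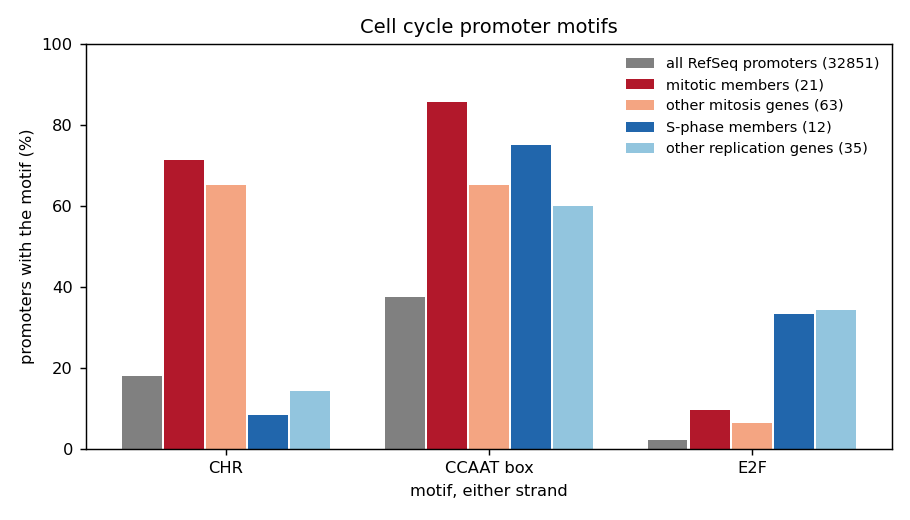
Share of promoters (percent) that hold each motif on either strand, for all RefSeq promoters, the mitotic and S-phase members and the other genes of mitosis and replication. Bars start at 0, and the number of promoters stands in the legend. The CHR stood in 71.4% of the promoters of mitotic members and 8.33% of those of S-phase members.

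Cyclins A and B bind and activate Cdk1, the kinase that drives cells into mitosis. Ccnb2, a B cyclin, was at -2.05, -2.11 and -2.21 on Sham replicates 2 to 4 and at -1.23, -2.60, -2.53 and -2.95 on TAC replicates 1 to 4. Ccnb1, the other B cyclin, was at -2.32, -2.87 and -3.26 on the Sham arrays and at -2.07, -3.37, -3.97 and -3.23 on the TAC arrays. In both, TAC replicate 1 was the highest array and the other TAC arrays were low, all below the Sham arrays for Ccnb2 and 2 of 3 below them for Ccnb1, of which 1 of the 3 was not well above background. Another tested probe of Ccnb1 was at -2.72 on Sham replicate 4 and -4.22 on TAC replicate 1, but well above background on only 2 Sham arrays and 1 TAC array. Ccna2, the A cyclin of S phase and G2, was counted here among the mitotic members. On TAC replicate 1 it exceeded the mean of the other TAC arrays by 1.83.

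Cdk1 itself went another way and was named after its values were seen. Its brightest probe was at -3.93, -4.13 and -3.99 on the Sham arrays and at -4.84, -5.18, -4.53 and -4.94 on the TAC arrays. Every TAC array lay below Sham replicates 2 to 4, TAC replicate 1 included, but Sham replicate 1 was at -4.87, within the TAC range. The probe was well above background on 3 Sham arrays and on 0 TAC arrays. Against Sham replicates 2 to 4 alone, it was at least 1.53-fold lower after TAC (limma adjusted p = 0.197). It entered the test only through the Sham arrays on which it was high, so a difference in this direction follows from the filter and supports nothing. A bound of this kind sets the mean of the brighter group against the lowest signal well above background on each array of the dimmer one, or the dim probe's own where higher. Its other tested probe was at -3.41 on TAC replicate 1 and well above background on 1 Sham and 2 TAC arrays, which does not repeat that pattern, and its remaining probe was well above background on 1 array.

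Among the mitotic kinases, Plk1, which acts in centrosome maturation and spindle assembly, was at -1.49, -2.08 and -2.18 on the Sham arrays and at -0.69, -1.51, -1.92 and -1.92 on the TAC arrays. Aurka, the Aurora kinase of the spindle poles, was at -1.93, -1.80 and -1.90 and at -1.35, -1.96, -2.10 and -1.84. TAC replicate 1 was the highest array for both, and the remaining TAC and Sham arrays overlapped. Pbk was at -1.71 on TAC replicate 1, the only one of the 7 arrays on which it was well above background. Values on the others carry no order and give no size of the difference, and it was not tested. Aurkb, the Aurora kinase of the chromosomal passenger complex, and Melk were well above background on no array.

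The anaphase-promoting complex ends mitosis by marking cyclin B and securin for destruction. Cdc20, its activator, was at -2.25, -2.28 and -2.18 on the Sham arrays and at -0.65, -2.46, -2.27 and -2.30 on the TAC arrays. Ube2c, the enzyme that hands it ubiquitin, was at -1.70, -1.96 and -1.74 and at -1.04, -1.77, -1.64 and -2.08. For Cdc20 the 6 other scanned arrays lay within a narrow range, and TAC replicate 1 was 3.24-fold above the mean of the other TAC arrays. Sham replicate 1 was at -1.92, above those 6 arrays and below TAC replicate 1. The other probe of Ube2c exceeded the other TAC arrays on TAC replicate 1 by 0.82 on the log2 scale, beside 0.79 for the first. Of the spindle checkpoint kinases, Bub1b was 1.41 above the other TAC arrays on TAC replicate 1, with 1 of them not well above background, and Bub1 was well above background on no array.

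At the centromere, Birc5, the survivin subunit of the chromosomal passenger complex, was at -1.25, -1.43 and -1.51 on the Sham arrays and at 0.058, -1.67, -1.57 and -1.69 on the TAC arrays. Cenpe, a kinesin of the kinetochore, was at -3.11, -3.33 and -3.63 and at -2.37, -3.24, -3.87 and -3.42. Birc5 on TAC replicate 1 was 3.25-fold above the mean of the other TAC arrays, each of which lay below every Sham array. Its 2 other probes, well above background on 3 and 2 arrays, had their highest value on TAC replicate 1 too, but the mean over its tested probes turned the difference between the groups from 0.18 to -0.026. Cenpf, of the kinetochore, and Ncapg, a condensin subunit, were well above background on no array.

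Of the proteins of the spindle and of cytokinesis, Prc1, which links antiparallel microtubules, was at -3.55, -3.92 and -3.48 on the Sham arrays and at -1.67, -3.55, -3.07 and -3.50 on the TAC arrays. Nusap1, which bundles spindle microtubules, was at -3.08, -3.44 and -3.17 and at -2.35, -3.44, -3.64 and -3.45. TAC replicate 1 was the highest array for both, and Nusap1 had a group difference of 0.010 that turned to -0.019 with median centring and -0.025 with quantile normalization. Kif23, a motor of the midzone named after its values were seen, was at -4.73, -5.29 and -5.50 on the Sham arrays and at -4.39, -4.05, -4.75 and -4.62 on the TAC arrays. It was well above background on only 1 Sham and 2 TAC arrays, so its unadjusted call rests on dim values whose difference has no measured size (limma adjusted p = 0.309). Kif20a, another motor of cytokinesis, was 1.13 above the other TAC arrays on TAC replicate 1, with 1 of them not well above background.

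On chromatin, Mki67, the coat of mitotic chromosomes and the usual stain for dividing cells, was at -1.43, -2.11 and -2.05 on the Sham arrays and at -0.090, -1.74, -1.68 and -1.95 on the TAC arrays. Its other probe was also highest on TAC replicate 1, 1.99 above the mean of the other TAC arrays beside 1.70 for the first. Sham replicate 1 was at -1.21, above the other Sham arrays and below TAC replicate 1. Top2a, the topoisomerase that untangles sister DNA, was well above background on TAC replicate 1 alone, at -3.36.

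Near the limit of 3 arrays for testing, Cdk1 and Kif23 were just inside. Tpx2, which targets Aurka to the spindle, was well above background on 2 arrays and just outside, as TAC replicate 1 at -1.67 and 1 Sham array passed by its brighter probe. Its other probe was not well above background on TAC replicate 1. Kif11, the motor that holds the spindle poles apart, Pbk and Top2a passed on 1 array. Of all 38 members, 22 were well above background on all 7 arrays and 6 on none, the last being Aurkb, Melk, Bub1, Cenpf, Ncapg and Ccne2. A member bright on a single array could not enter the test, so the 28 tested members are not all members.

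**Figure D4:**
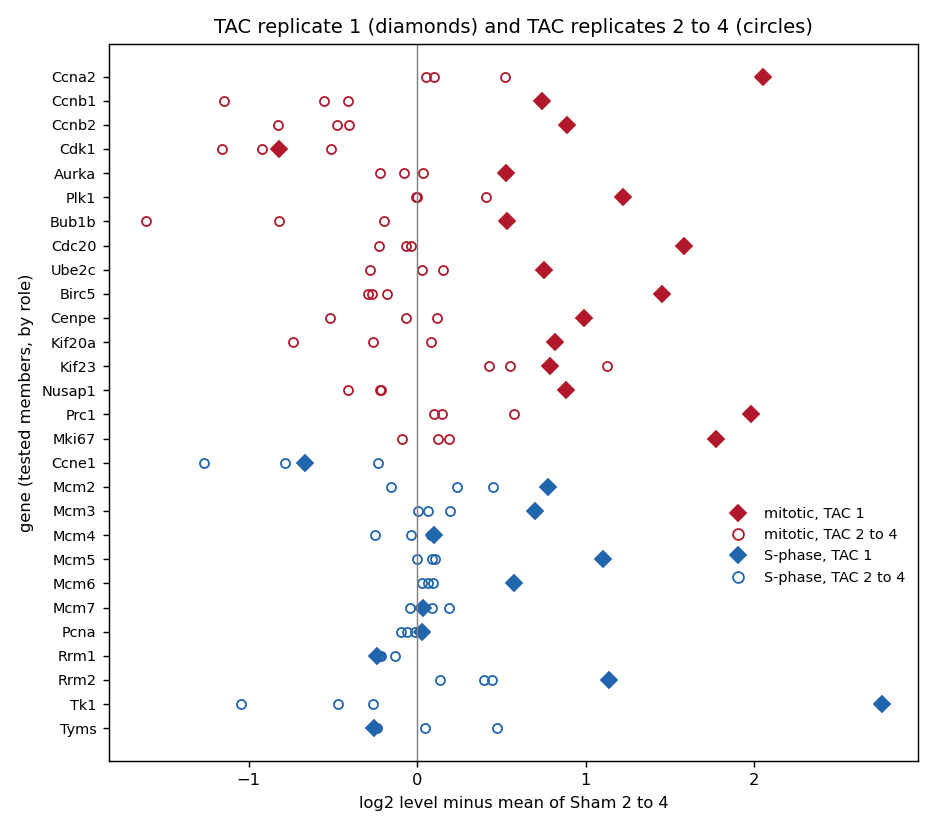
Log2 level minus the mean of Sham replicates 2 to 4 for each tested member, by role, on TAC replicate 1 (diamonds) and TAC replicates 2 to 4 (circles), with mitotic members in red and S-phase members in blue. For most mitotic members the diamond lies right of all circles. For Cdk1, Kif23, Ccne1 and Mcm7 it lies between circles, and for Rrm1 and Tyms left of them.

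The S-phase members divided into some that lay high on TAC replicate 1 and others that did not. Ccne1, the cyclin that opens S phase with Cdk2, was at 1.098, 1.18 and 0.74 on the Sham arrays and at 0.34, 0.78, -0.26 and 0.22 on the TAC arrays. It was lower after TAC by a difference of -0.74 (standard error 0.242, limma adjusted p = 0.317), and TAC replicate 2 overlapped Sham replicate 4. Its other probe was well above background on 3 Sham arrays and 1 TAC array. Ccne2, its paralogue, was at -4.55 on TAC replicate 3 and the other 6 arrays were between -7.49 and -6.84. It was well above background on no array, so these values carry no order.

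The helicase made of Mcm2 to Mcm7 unwinds DNA at replication forks, and Pcna is the clamp that holds the polymerase. Mcm7 was at 2.36, 2.31 and 2.48 on the Sham arrays and at 2.42, 2.47, 2.34 and 2.57 on the TAC arrays. Pcna was at 3.23, 3.29 and 3.24 and at 3.28, 3.15, 3.19 and 3.24. Neither stood out on TAC replicate 1, and the groups overlapped, with differences of 0.067 and -0.034, the latter 0.037 under quantile normalization. With each array left out in turn, the differences ranged from 0.027 to 0.12 for Mcm7 and from -0.056 to -0.013 for Pcna. Among the other subunits TAC replicate 1 exceeded the mean of the other TAC arrays by 0.60 for Mcm2, 0.61 for Mcm3, 0.17 for Mcm4, 1.04 for Mcm5 and 0.51 for Mcm6, a range within a single complex.

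The promoters of Mcm6 and Mcm7 are shown for their E2F sites, again chosen after their motifs were seen, and because these subunits differed on TAC replicate 1. Capitals mark E2F sites and CCAAT boxes on either strand. In Mcm6 2 E2F sites overlap on opposite strands, and in Mcm7 an E2F site and a CCAAT box share a base. Mcm6 lies at chr1:128359656-128359955, minus strand, and the first of the 2 promoters listed for Mcm7 at chr5:138171834-138172133, minus strand. The other listed promoter of Mcm7 holds no E2F match.
Mcm6: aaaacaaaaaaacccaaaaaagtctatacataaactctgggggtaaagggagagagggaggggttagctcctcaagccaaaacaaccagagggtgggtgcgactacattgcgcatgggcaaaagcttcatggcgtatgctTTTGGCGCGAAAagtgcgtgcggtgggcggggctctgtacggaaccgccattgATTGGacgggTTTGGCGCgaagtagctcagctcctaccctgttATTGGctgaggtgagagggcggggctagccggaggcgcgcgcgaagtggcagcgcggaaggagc
Mcm7: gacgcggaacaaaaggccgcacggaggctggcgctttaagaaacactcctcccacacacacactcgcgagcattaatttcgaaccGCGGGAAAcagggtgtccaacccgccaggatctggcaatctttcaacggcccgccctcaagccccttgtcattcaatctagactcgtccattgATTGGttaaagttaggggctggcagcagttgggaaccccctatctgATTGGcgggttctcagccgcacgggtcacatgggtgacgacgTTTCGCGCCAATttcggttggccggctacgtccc

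Nucleotides for DNA are made by ribonucleotide reductase, of which Rrm1 is the large and Rrm2 the small, cycle-regulated subunit. Rrm1 was at 1.297, 1.27 and 1.39 on the Sham arrays and at 1.08, 1.19, 1.104 and 1.103 on the TAC arrays. Rrm2 was at -0.89, -1.67 and -1.41 and at -0.18, -0.93, -1.19 and -0.88. Every TAC array lay below Sham replicates 2 to 4 for Rrm1, with a difference of -0.20 (standard error 0.0776, limma adjusted p = 0.360), but Sham replicate 1 was at 1.08, within the TAC range. Rrm2 was highest on TAC replicate 1, and its groups overlapped. Tk1, the thymidine kinase of dividing cells, was named after its values were seen. It was at -1.15 on TAC replicate 1 and well above background on only 1 of the other TAC arrays, so the size of the difference was not measured. Tyms, the thymidylate synthase, lay at -0.35 relative to the other TAC arrays on TAC replicate 1.

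Other genes of the pathway were listed from knowledge of the cell cycle, but with earlier results of these data known. Their counts on TAC replicate 1 are therefore a description with no test. Between the groups, limma called 0 of the tested genes in each of the 5 lists. Of 67 other mitosis genes 39 were tested and 13 were well above background on no array. Their median difference was -0.0093, or -0.14 without TAC replicate 1 and 0.074 without TAC replicate 3, above 0 also without Sham replicate 2, TAC replicate 2 or TAC replicate 4, with 1 higher (Spc24) and 3 lower (Cks2, Ndc80 and Cenpa) at an unadjusted p under 0.05, against 4.38% and 8.43% of all probes. Ndc80 met the filter by its 3 Sham arrays and was well above background on only 1 TAC array, so nothing is read from its call. TAC replicate 1 was the highest array for 26 of the 39, against 18.2% of all probes, and over 2-fold above the other TAC arrays in 8, against 3.61%. Among the TAC arrays, Aspm, of the spindle pole, and Kif2c, a microtubule depolymerase, were well above background on TAC replicate 1 alone, at -3.25 and -2.997. There Pttg1, or securin, differed from the other TAC arrays by 0.039 and the condensin subunit Ncapd2 by 0.38. The mean of this list on TAC replicate 1 was 0.43 above Sham, lower than that of the mitotic members, which were chosen for that array.

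Of 38 other replication genes 34 were tested, with a median difference of -0.036, or -0.10 without TAC replicate 1. It turned to 0.035 without Sham replicate 2 and 0.064 without TAC replicate 3. At an unadjusted p under 0.05, 2 were higher, Pold1 and Uhrf1, and 5 lower, Cdc45, Lig1, Gins2, Gins1 and Rpa3, against 4.38% and 8.43% of all probes. TAC replicate 1 was the highest array for 14 of the 34, against 18.2%. The list's mean on that array was 0.10 above Sham. The brightest probes belonged to Rpa1, of the single-strand binding protein, and Gins3, and on TAC replicate 1 they lay 0.26 and 0.17 above the other TAC arrays. Genes in the 2 unadjusted counts of this paragraph and the last were named after their values were seen.

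Of 20 E2F, Rb and DREAM genes 19 were tested, with a median difference of -0.075 and 2 lower at an unadjusted p under 0.05, E2f3 and E2f7, against 8.43% of all probes. Without TAC replicate 1 this median was -0.073, but it was -0.0086 without Sham replicate 2 and -0.13 without Sham replicate 3. On TAC replicate 1, E2f1, an activating E2F, exceeded the other TAC arrays by 1.005 and E2f8 was well above background on that array alone, at -4.27, whereas Rb1 was -0.32 from them. Of 8 G1 cyclins and CDKs all were tested, with a median of 0.049, Myc higher and Cdc25a lower at an unadjusted p under 0.05, against 4.38% and 8.43%, and Ccnd1 1.15 above the other TAC arrays on TAC replicate 1. The median of this list turned to -0.047 with normexp background correction and -0.043 in the table of 8 arrays. Of 7 CDK inhibitors 6 were tested, with a median of 0.017 and Cdkn2d lower at an unadjusted p under 0.05, against 8.43%. For these inhibitors the median turned to -0.050 without Sham replicate 3 and -0.0016 without TAC replicate 4. With median centring it was -0.012, and in the table of 8 arrays -0.050. Cdkn1a, or p21, their brightest, was at 4.01, 4.20 and 4.87 on the Sham arrays and at 4.51, 4.57, 4.75 and 4.86 on the TAC arrays, which overlapped, and Cdkn2a was well above background on no array. On TAC replicate 1 these 3 lists lay at 0.00022, 0.21 and -0.10 from Sham.

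Markers of cell types moved on TAC replicate 1 together with the mitotic members, and their part in the result was not tested. In such bulk RNA, fewer cells of a type and less RNA per cell cannot be told apart, nor can more cells and more RNA. Summed levels are linear intensities over the 75th percentile of the array, added over all genes of a list, and means are log2 differences from Sham replicates 2 to 4. All 14 macrophage markers were tested, 12 of them highest on TAC replicate 1, where their mean was 1.19. Their median difference between the groups was 0.11, or -0.32 without that array. Their summed level was 57.7, 50.6, 51.0 and 54.3 on Sham replicates 1 to 4 and 103, 50.6, 42.6 and 47.5 on TAC replicates 1 to 4. Ctss stood 3.09 and Mpeg1 2.87 above the other TAC arrays there, the brightest probe was that of Itgam, and Cd163 went the other way, -1.02. Where a marker below is neither brightest nor furthest from the other TAC arrays, it was named after its values were seen, as Cd163 was.

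Of 7 monocyte and dendritic cell markers with a probe, 6 were tested, 5 were highest on TAC replicate 1, and the mean there was 1.91. Their sum was 1.21, 0.986, 0.655 and 0.781 on Sham replicates 1 to 4 and 3.01, 0.809, 1.37 and 0.797 on TAC replicates 1 to 4. Itgax led with 3.15 above the other TAC arrays and Cd209a with 2.32, while Zbtb46 had the brightest probe and Xcr1 was well above background on no array. Of 10 T cell markers 9 were tested and 6 highest on TAC replicate 1, with a mean of 1.002. Their sum was 10.6, 9.46, 9.49 and 9.15 on Sham replicates 1 to 4 and 10.9, 9.73, 9.43 and 9.22 on TAC replicates 1 to 4. Cd3d exceeded the other TAC arrays by 1.98 and Cd3g by 1.95, but Cd3e by 0.059 and Cd4, the brightest, by -0.068, and Cd8b1 was well above background on no array.

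Of 5 NK cell markers 3 were tested, and 2 were highest on TAC replicate 1, with a mean of 0.80 and a median of 0.27. Their sum was 4.78, 4.37, 3.73 and 4.02 on Sham replicates 1 to 4 and 6.53, 3.82, 3.81 and 3.37 on TAC replicates 1 to 4. Gzma, a granule protease, exceeded the other TAC arrays by 2.64, the brightest was Nkg7, and Klrk1 was well above background on TAC replicate 1 alone. Of 8 neutrophil markers with a probe 5 were tested, and 3 were highest on TAC replicate 1, with a mean of 0.96 and a median of 0.37. Their sum was 4.79, 4.70, 4.59 and 4.47 on Sham replicates 1 to 4 and 6.12, 4.85, 4.44 and 3.92 on TAC replicates 1 to 4. S100a9 exceeded the other TAC arrays by 3.26 and S100a8 was at -1.66 there and well above background on only 1 of them, the brightest was Elane, and Mpo was well above background on no array. Of 9 B cell markers 4 were tested and 2 highest on TAC replicate 1, with a mean of 0.37, and the defining Cd79a, Ms4a1 and Pax5 were well above background on 1 or 2 arrays. Their sum was 2.33, 2.18, 2.66 and 2.21 on Sham replicates 1 to 4 and 3.03, 2.22, 2.26 and 2.39 on TAC replicates 1 to 4, and Cd22 was the brightest.

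Brown adipocyte markers went the other way on TAC replicate 1, with a mean of -1.32 and a median of -0.61, and 0 of 11 were highest there. Their means on TAC replicates 2, 3 and 4 were -0.27, 0.00050 and -0.58. Their sum was 3363, 3317, 4037 and 3535 on Sham replicates 1 to 4 and 2564, 3537, 3368 and 3356 on TAC replicates 1 to 4. Elovl3, a fatty acid elongase, was -4.07 and Dio2, the deiodinase that activates thyroid hormone, -1.99 from the other TAC arrays, and Cidea was the brightest. Stromal and preadipocyte markers, all 9 tested, had a mean of 0.44, 7 were highest on TAC replicate 1, and Dcn was the brightest. Their sum was 177, 175, 161 and 195 on Sham replicates 1 to 4 and 225, 196, 186 and 165 on TAC replicates 1 to 4. Skeletal muscle markers, all 7 tested, had means of 1.76, 1.09, -0.20 and 1.47 on TAC replicates 1 to 4, so they were high on arrays where the mitotic members were not. Their sum was 80.5, 24.2, 92.6 and 41.9 on Sham replicates 1 to 4 and 151, 111, 32.4 and 146 on TAC replicates 1 to 4, and Myh4 was the brightest.

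On TAC replicate 1 the means of the remaining lists were 0.52 for 4 germinal centre and plasma cell markers, 0.24 for 5 mast cell markers, 0.17 for 4 erythroid markers, 0.17 for 8 endothelial markers, -0.096 for 7 smooth muscle and pericyte markers and -0.26 for the only thymocyte marker tested, Dntt. On the other TAC arrays the germinal centre and plasma cell list reached 0.61, and its highest mean was on Sham replicate 1, 0.74. Sums of the germinal centre and plasma cell list were 35.3 on TAC replicate 1 and 26.3 to 42.0 on the other 7 arrays, with Bcl6 the brightest. Limma called 0 genes of each marker list after TAC. At an unadjusted p under 0.05 2 of 11 brown adipocyte, 1 of 3 NK cell and 1 of 5 neutrophil markers were lower, against 8.43% of all probes, and 1 of 14 macrophage, 1 of 4 germinal centre and plasma cell and 2 of 8 endothelial markers were higher, against 4.38%, with 0 in the other lists.

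**Figure D5:**
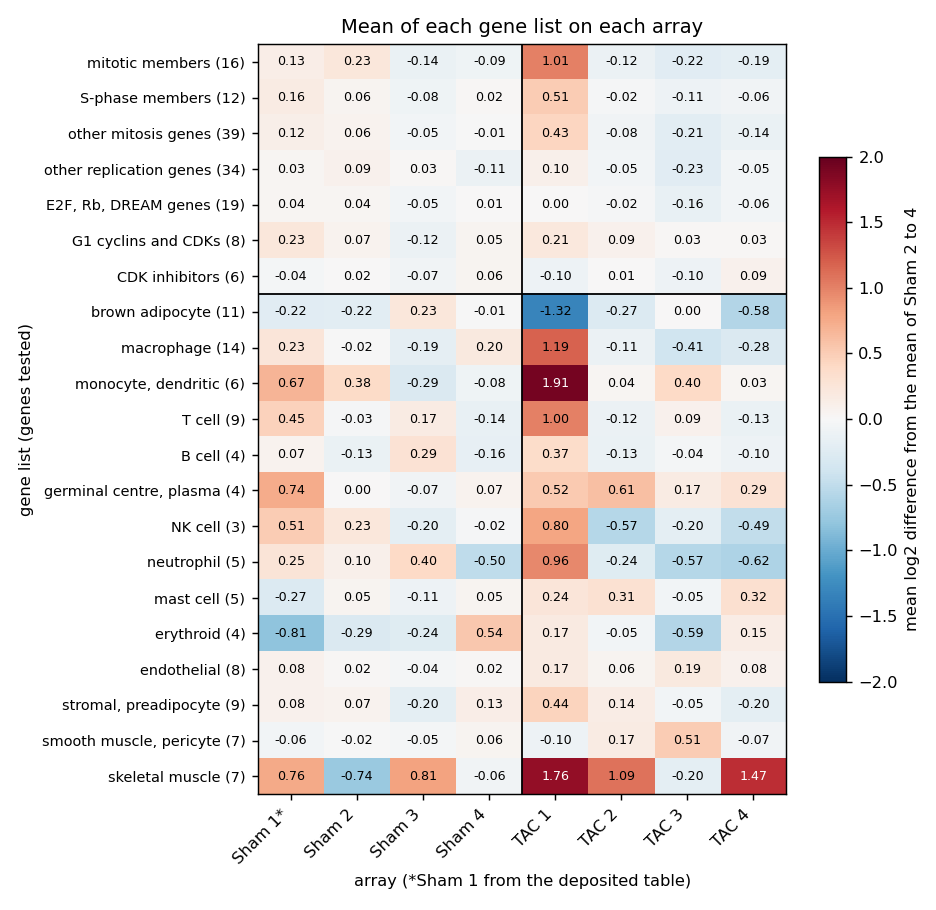
Mean log2 difference of each gene list from the mean of Sham replicates 2 to 4 on each array, as colour and number, with the count of genes tested in parentheses. On TAC replicate 1 the mitotic members (1.01) lay high together with the monocyte and dendritic (1.91), macrophage (1.19), T cell (1.002), neutrophil (0.96) and skeletal muscle (1.76) markers, the last also on TAC replicates 2 and 4, and the brown adipocyte markers (-1.32) lay low.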

How the data were processed

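The labels credit the extraction of the spots to Agilent Feature Extraction 10.7.1.1. Per the file headers, the scanner intensity of each spot was background-subtracted by that software with no scaling across the slide. An intensity per probe for all 8 arrays was deposited too, in a table whose making is not stated. Over probes above 100 units, 99.8% to 99.9% of its entries were the scanner value times a fixed factor per array to 1%, column medians were 0.091 to 0.098 and 75th percentiles 1.002 to 1.004, so it is linear, divided by about that percentile and not centred per probe, and which probes set its percentile is unknown. It lay 0.17 to 0.21 log2 units above the scale used here, so Sham replicate 1 was shifted by the median of these offsets, 0.19, to be set beside the others, and it entered no test of the main setting.

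From 59305 spots per array that are not controls, outlier spots were left out, log2 of the 75th percentile was subtracted, and spots of a probe were averaged. A probe was well above background on an array when no fewer of its spots passed that call than failed it. Probes well above background on at least 3 of 7 arrays and measured on at least 2 per group, 33364 of 55681, were fitted in R 4.3.3 by limma 3.58.1 (lmFit, then eBayes) without a block, and p-values were adjusted over all of them. The fit was tested on simulated data. Accessions were named through RefSeq (GRCm38.p6), which named 28026 probes, or 50.3%. The members had 48 probes, several for 7 of them, and the brightest tested probe stands for a gene.

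The members and lists were chosen with earlier results of these data known. Array values are given for the 2 brightest members of each of 9 roles (of those passing the background call on 3 arrays or more), and for the members with the largest and smallest difference of TAC replicate 1 from the other TAC arrays. Of other lists, up to 2 of the brightest and up to 2 with the largest such difference may be named. Genes outside these rules are named too, and not every one is marked as such. Those named for an unadjusted p under 0.05 were named after their values were seen. Values of some genes on these lists are not reported here. Alternatives were quantile normalization, median centring, normexp on the median signal and background (offset 50), the deposited table, other filters on dim probes, outlier spots kept, an intensity trend, the methods' t-test, blocks by replicate number, the loss of any single array, and averaging a gene's probes.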

Additional observations from a re-analysis of the deposited data

Results flagged for a closer look

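In 52 groups of 4 arrays, lone values were sought by the gap between the highest or lowest array and its neighbour as a share of the range of the group. In 10 groups there was one. Chance gives about 1 of 20, but in 8 of the 10 TAC replicate 1 was high among the TAC arrays, the contrast that chose the members, so that rate is no test of this count. The share was 0.896 for Cdc20, 0.933 for Birc5, 0.850 for Nusap1, 0.852 for Mki67 and 0.919 for Pbk, the last against values not well above background, at levels of -0.65, 0.058, -2.35, -0.090 and -1.71. For list means it was 0.902 over all members tested, 0.865 over the S-phase members and 0.916 over the mitotic members, at 0.79, 0.51 and 1.01 above Sham. Other genes of 1 array share its RNA, so these are not independent.

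Ccne2 had a share of 0.859 from TAC replicate 3, at -4.55, but it was well above background on no array, so its values carry no order. Ccne1 was low on Sham replicate 4 among the Sham arrays of the deposited table, with a share of 0.847, and by scanner values it was at 0.74 there against 1.098 and 1.18 on Sham replicates 2 and 3.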

How the results depend on the processing

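Under every alternative with a test, limma or the methods' t-test called 0 members after adjustment (the mean of a gene's probes gave no test), and the number of probes called moved from 0 to 1 lower with normexp and with median centring and to 7 higher and 1 lower without TAC replicate 4. Of 367 values for named members 332 stayed on the same side of 0 and of the threshold, of 184 list medians 176 stayed within the spread between arrays, and of 154 counts 136 stayed within 1.5 times. The median of the G1 cyclins and CDKs moved to -0.047 with normexp, -0.043 in the table of 8 arrays and -0.035 with probes well above background on every array, where 0 members were higher at an unadjusted p under 0.05. Reversed differences between TAC and Sham were -0.019 for Nusap1 with median centring, -0.025 for Nusap1 and 0.037 for Pcna with quantile normalization, -0.021 for Cenpe in the table of 8 arrays, -0.0081 for Nusap1 in that of the same 7 arrays, and -0.026 for Birc5 with the mean of its probes. The cause was not tested. With each array left out in turn, probes at an unadjusted p under 0.05 ranged from 893 to 1562 higher and from 1602 to 2995 lower, both lowest without Sham replicate 3, probes called from 0 to 7 higher and from 0 to 1 lower, members from 0 to 2 higher and from 1 to 6 lower at that p, and the median of the E2F, Rb and DREAM genes from -0.13 to -0.0086. Differences then ranged from -0.090 to 0.16 for Aurka, -0.11 to 0.49 for Cdc20, -0.030 to 0.31 for Ube2c, -0.15 to 0.35 for Cenpe, -0.25 to 0.34 for Birc5, -0.28 to 0.15 for Nusap1 and -0.57 to 0.0033 for Ccnb2.

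After the data were seen, the deposited table without TAC replicate 1 was added, which gave 8 of 28 members lower at an unadjusted p under 0.05, against 2881 of 33364 probes, a median of -0.053 for the G1 cyclins and CDKs and differences of -0.030 for Aurka, -0.20 for Cdc20, -0.12 for Ube2c, -0.31 for Cenpe, -0.33 for Birc5, -0.29 for Nusap1 and -0.10 for Mki67. The table without Sham replicate 1 too, also added then, gave 6 members lower, against 3263 probes, and differences of -0.11 for Aurka, -0.13 for Cdc20, -0.048 for Ube2c, -0.17 for Cenpe, -0.27 for Birc5 and -0.30 for Nusap1. The filter used first, well above background on any spot that is no outlier, was replaced after its results were seen, and it gave 33378 probes tested, 1462 higher and 2817 lower at an unadjusted p under 0.05 and 0 called. Dim probes limit what can be said of the 10 members not tested, and the slide could not be a block, since there was 1.

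No label pairs arrays of the same number, but scanned arrays of the same number shared a column of the slide. Their deviations from the group means correlated at 0.000932, -0.0255 and -0.0208 across probes in the 3 scanner pairs, replicates 2 to 4. In the 4 pairs of the table the correlation was 0.269 for replicate 1 and 0.0203, 0.0564 and 0.0204 for replicates 2 to 4. Why the pair with TAC replicate 1 was highest was not tested. A block by number gave 0 probes called, with 1344 higher and 2481 lower at an unadjusted p under 0.05 over 7 arrays. Over 7 arrays, where TAC replicate 1 has no partner, the block gave 5 members lower at that p and differences of -0.090 for Aurka, -0.11 for Cdc20, -0.030 for Ube2c, -0.15 for Cenpe, -0.25 for Birc5 and -0.28 for Nusap1. In the table of 8 arrays the block gave 2 members higher, against 1579 probes, a median of -0.043 for the G1 cyclins and CDKs and -0.021 for Cenpe.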

Other observations

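Jchain, the joining chain of antibodies made by plasma cells, was named after its values were seen. It was at -0.24 on Sham replicate 1, -2.97, -3.02 and -2.99 on Sham replicates 2 to 4 and -1.26, -0.99, -2.81 and -2.17 on TAC replicates 1 to 4. Sham replicate 1, TAC replicate 1 and TAC replicate 2 were high. The difference of the groups without Sham replicate 1 was 1.19 (limma adjusted p = 0.341). It would be smaller with that array, which was the highest of all. Parpbp, a replication stress gene of the other mitosis list, was well above background on TAC replicates 2 and 3 alone, at -2.57 and -2.72, and Cep55, of the abscission site, was at -1.02 on TAC replicate 2 and between -2.55 and -2.01 on the other 6 arrays, both also named after their values were seen.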
